A study of Mus musculus with 10 samples.

Results

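The BCL2 family genes described here are 10 mouse genes listed by symbol, without a threshold on measured values but with earlier results of these data known, out of 29893 genes in the deposited transcript tables. They comprise 6 pro-survival genes (Bcl2, Mcl1, Bcl2l1 and the copies Bcl2a1a, Bcl2a1b and Bcl2a1d), 2 BH3-only genes (Bcl2l11 and Bid) and 2 pore-forming effectors (Bax and Bak1). All 10 had transcripts in the tables. The libraries came from CCR2+ monocytes and neutrophils that had been sorted by flow cytometry out of the lungs of tumour-bearing NOD/scid mice at end point, and the question was how the transcriptomes compare between lungs under a low metastatic tumour (HCl-002, called TN2) and under a highly metastatic tumour (HCl-001, called TN1). There were 3 monocyte libraries from TN2, 2 monocyte libraries from TN1, 3 neutrophil libraries from TN2 and 2 neutrophil libraries from TN1. Every mouse, in all 4 groups, was of the NOD/scid strain, an immunodeficient host without mature T and B cells, and every group carried a tumour, so no tumour-free lung served as a baseline. The labels used here give no sex and no age. Libraries carry the labels tag_367, tag_706 and tag_1341 in TN2 and tag_191 and tag_482 in TN1, and values of a group are given in that order. Each tag occurs once per cell type, and the labels do not say that tags are separate animals, so p-values measure only the spread between these samples.

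BCL2 family proteins decide whether the outer mitochondrial membrane is opened, the step that releases cytochrome c and starts the caspases. Pro-survival proteins hold the pore-forming proteins Bax and Bak in check, and BH3-only proteins such as Bim (from Bcl2l11) and Bid either occupy the pro-survival proteins or activate the effectors. Neutrophils are short-lived cells whose survival is known to lean on Mcl1 and on A1, the protein of the Bcl2a1 genes, which exist in several near-identical copies in mice and as a single gene in humans.

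Depth was 7239218 to 11311370 estimated counts per library, and levels are given as TPM, a share of transcripts that is corrected for their length, a scale on which genes can be compared. Markers of the labelled cell types were checked as summed TPM. The 10 neutrophil markers summed to 465 to 8794 TPM in the monocyte libraries and to 138596 to 211212 TPM in the neutrophil libraries. The 10 monocyte markers summed to 1922 to 4116 TPM in the monocyte libraries and to 973 to 2235 TPM in the neutrophil libraries, so these ranges overlapped. Monocyte library TN2 tag_706 stood apart, with the highest sums among all 10 libraries for stromal (2199 TPM), endothelial (1308 TPM), epithelial (419 TPM) and natural killer cell markers (670 TPM), and with the 8794 TPM of neutrophil markers. Monocyte library TN1 tag_482 had the highest sums of dendritic cell (895 TPM) and erythroid markers (446 TPM). The 7 measured alveolar macrophage markers summed to 1982, 5899 and 11123 TPM in TN2 monocytes and 578 and 99 TPM in TN1 monocytes, against 165 to 1171 TPM in neutrophils. Chil3 made up most of these monocyte sums, at 1939, 5256 and 11047 TPM in TN2 and 543 and 64.6 TPM in TN1, while Marco, at 0, 16.8 and 0 TPM in TN2 and 0.249 and 0 TPM in TN1, was above 1 TPM in TN2 tag_706 alone. The T cell marker Cd3e was at 0 in every library. Genes of the mitochondrial genome took a larger part of TPM in the tag_482 libraries than in the others of their cell type, 19.9% in monocytes and 3% in neutrophils, against at most 5.82% in the other monocyte libraries and at most 0.813% in the other neutrophil libraries.

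The Bcl2a1 copies gave the highest TPM of the family, and how that total divided over the copies differed between the cell types. The copies lie on chromosome 9 and share nearly all of their coding sequence, so the start of each coding sequence is shown, since these are the letters by which reads can be told apart. The stretch is the first 90 coding bases, in exon 1 of 2, from GENCODE release M21 on build GRCm38, and capitals mark the 6 positions in it at which the copies differ. Bcl2a1a is on the plus strand at chr9:88957051-88957140, Bcl2a1b on the plus strand at chr9:89199360-89199449 and Bcl2a1d on the minus strand at chr9:88731630-88731719.
Bcl2a1a: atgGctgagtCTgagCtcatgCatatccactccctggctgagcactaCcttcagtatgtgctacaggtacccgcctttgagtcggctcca
Bcl2a1b: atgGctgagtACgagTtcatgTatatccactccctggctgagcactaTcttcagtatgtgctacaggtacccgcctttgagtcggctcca
Bcl2a1d: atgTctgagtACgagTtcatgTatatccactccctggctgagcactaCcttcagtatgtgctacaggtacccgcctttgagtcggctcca

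Over the whole coding sequence of 516 bases, Bcl2a1a and Bcl2a1b differed at 11 bases (97.9% identity), Bcl2a1a and Bcl2a1d at 7 (98.6%) and Bcl2a1b and Bcl2a1d at 6 (98.8%). There were 12 variable positions in all, of which Bcl2a1a stood alone at 6, Bcl2a1b at 5 and Bcl2a1d at 1. Words of 31 bases found in no other transcript made up 161 of the 789 words of the Bcl2a1a transcript (20.4%), 88 of 787 for Bcl2a1b (11.2%) and 91 of 833 for Bcl2a1d (10.9%), while 444 words were common to all 3. The split between copies rests on the authors' estimation, and the share of reads that cover a variable position was not analysed here. The transcripts of Bcl2a1a and Bcl2a1d have other lengths in the deposited tables than in this release. The reference is C57BL/6 while the mice were NOD/scid, and strain differences at these positions were not analysed here.

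Bcl2a1b held 39.2%, 43.7% and 47% of the summed copies' TPM in the TN2 monocyte libraries and 43% and 35.4% in the TN1 monocyte libraries, against 76.6%, 77.2% and 77.9% in the TN2 neutrophil libraries and 76.2% and 74.3% in the TN1 neutrophil libraries. All 5 monocyte libraries lay below all 5 neutrophil libraries. The mean share was 41.6% ± 4.46 in monocytes and 76.4% ± 1.36 in neutrophils (SD, n = 5 each). A two-sided exact permutation test gave p = 0.00794, the smallest that 5 against 5 libraries allow (0.0106 adjusted over the 4 copies' shares). This test, used for each copy, treated libraries as independent and did not keep those of the same tag together. Bcl2a1d had the opposite balance, 38.2% ± 6.22 in monocytes and 12.3% ± 1.4 in neutrophils (SD, n = 5 each), without overlap (exact permutation p = 0.00794, adjusted 0.0106). Bcl2a1a made up 20.1% ± 2.05 in monocytes and 11.3% ± 1.28 in neutrophils (SD, n = 5 each), again without overlap (exact permutation p = 0.00794, adjusted 0.0106). The shares of a library sum to the whole, so a larger share of Bcl2a1b leaves less for the other copies. The tests of the copies are thus not independent results. The gene Bcl2a1c, which is no member, held at most 0.132% in any library. Shares of estimated counts gave the same order, with Bcl2a1b at 42.5% ± 4.49 in monocytes and 77.1% ± 1.35 in neutrophils (SD, n = 5 each).

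**Figure D1:**
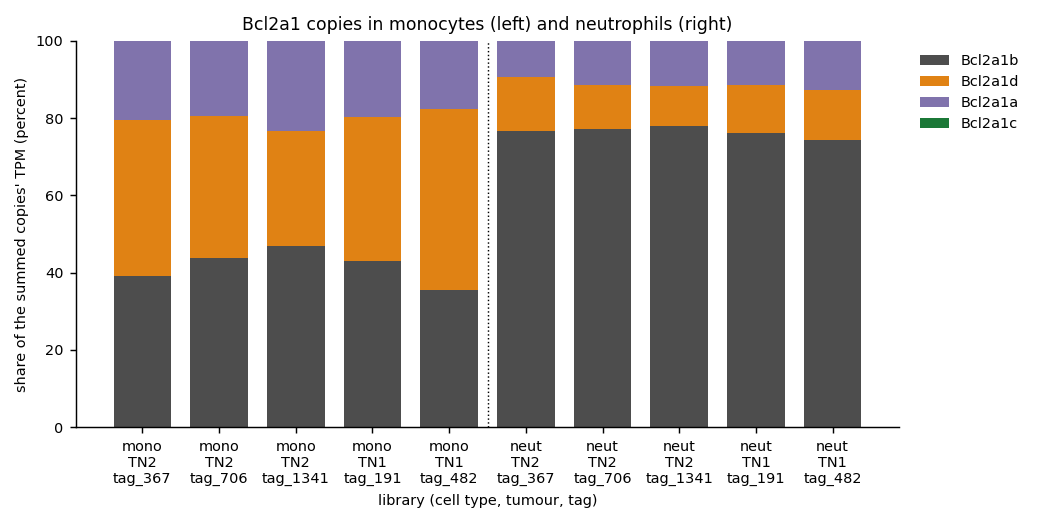
Share of the summed Bcl2a1 copies' TPM (percent, stacked bars) held by each copy in the 10 libraries, monocytes left and neutrophils right of the dotted line. Bcl2a1b makes up 35.4% to 47% of each monocyte bar and 74.3% to 77.9% of each neutrophil bar, and Bcl2a1c is too small to be seen.

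Of the single copies, Bcl2a1b was the one whose level passed the test between the cell types on counts. It was at 192, 357 and 395 TPM in TN2 monocytes and 398 and 365 TPM in TN1 monocytes, against 717, 787 and 992 TPM in TN2 neutrophils and 747 and 739 TPM in TN1 neutrophils. The monocyte libraries were all below the neutrophil libraries. On TMM-scaled counts (counts over a library size corrected for composition, written CPM, the scale of the tests) the log2 difference, monocytes minus neutrophils, was -1.96 ± 0.26 (SE; edgeR quasi-likelihood test with Benjamini-Hochberg adjustment over 13384 genes, adjusted p = 0.000596, 5 libraries per side), a 3.9-fold lower level in monocytes. In libraries of bulk RNA, fewer expressing cells and less RNA per cell cannot be told apart.

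Bcl2a1d was at 198, 301 and 250 TPM in TN2 monocytes and 345 and 483 TPM in TN1 monocytes, against 132, 116 and 133 TPM in TN2 neutrophils and 122 and 128 TPM in TN1 neutrophils. Its monocyte libraries were all above its neutrophil libraries in TPM. On TMM-scaled counts the ranges overlapped and the log2 difference of 0.59 ± 0.23 (SE) did not pass (edgeR, adjusted p = 0.0796), while on log2(TPM + 1) it was 1.32 ± 0.19 (SE) and passed (limma-trend, adjusted p = 0.000277).

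Bcl2a1a was at 100, 158 and 196 TPM in TN2 monocytes and 182 and 183 TPM in TN1 monocytes, against 86.9, 116 and 148 TPM in TN2 neutrophils and 111 and 128 TPM in TN1 neutrophils. The ranges overlapped, and the difference did not pass on either scale, at -0.29 ± 0.30 (SE) on counts (edgeR, adjusted p = 0.493) and 0.48 ± 0.24 (SE) on log2(TPM + 1) (limma-trend, adjusted p = 0.13).

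Summed, the copies do not depend on how reads were divided between them. The sum was 491, 817 and 840 TPM in TN2 monocytes and 926 and 1032 TPM in TN1 monocytes, against 936, 1020 and 1274 TPM in TN2 neutrophils and 980 and 995 TPM in TN1 neutrophils. In TPM the ranges touched only through the TN1 monocyte library tag_482, whereas on TMM-scaled counts they did not overlap, at 190 to 528 CPM in monocytes and 575 to 1069 CPM in neutrophils. It differed between the cell types by -1.09 ± 0.24 (log2, SE; edgeR, adjusted p = 0.00842) on counts and -0.32 ± 0.20 (SE; limma-trend, adjusted p = 0.221) on log2(TPM + 1).

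Over the 12281 genes in both fits, the TPM difference exceeded the count difference by a median of 0.58 on the log2 scale, and by 0.74 over the 2322 genes with at least 10 TPM in every library. The median of all genes was 0.46 on counts and 0.69 on log2(TPM + 1). Relative to that median, the summed copies were at -1.55 on counts and -1.0 on TPM, Bcl2a1b at -2.42 and -1.89, Bcl2a1a at -0.75 and -0.21, and Bcl2a1d at 0.13 and 0.64. Across all genes the balance of calls moved as well, with 2070 genes higher and 1663 lower in monocytes on counts (edgeR), against 4542 higher and 1215 lower on log2(TPM + 1) (limma-trend). Among the members Bak1 (2.21 on counts, 1.95 on log2(TPM + 1)) and Bcl2 (1.27 on counts, 0.60 on log2(TPM + 1)) had the smaller difference on log2(TPM + 1). Their neutrophil means were 0.873 and 0.2 TPM, levels at which the added 1 shrinks a log2 difference.

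**Figure D2:**
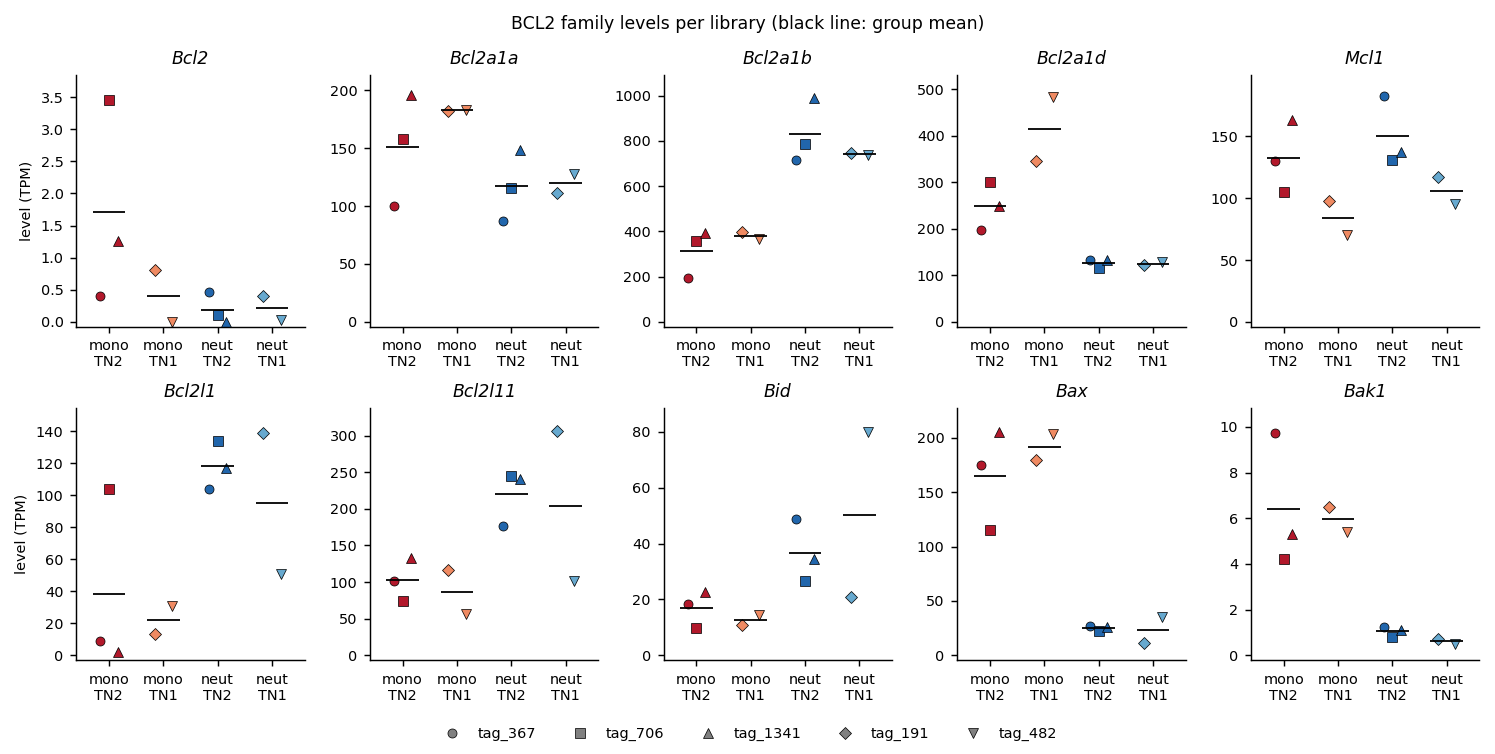
Level (TPM, linear axes from 0, a separate axis per gene) of each of the 10 genes in TN2 and TN1 monocytes and TN2 and TN1 neutrophils. Each symbol is a library, its shape gives the tag and black lines are group means. Bax and Bak1 lie higher in every monocyte library, Bcl2a1b lies higher in every neutrophil library, and the Bcl2l1 value of monocyte library TN2 tag_706 (104 TPM) stands among the neutrophil values.

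Mcl1, encoding a short-lived pro-survival protein that neutrophils need, was at 130, 105 and 163 TPM in TN2 monocytes and 97.9 and 70.1 TPM in TN1 monocytes, against 183, 131 and 137 TPM in TN2 neutrophils and 117 and 95.1 TPM in TN1 neutrophils. These ranges overlapped in TPM. In TMM-scaled CPM they did not, at 250 ± 61.8 in monocytes and 516 ± 114 in neutrophils (SD, n = 5 each). On the log2 scale the difference was -1.01 ± 0.21 (SE; edgeR, adjusted p = 0.00592) on counts and -0.26 ± 0.22 (SE; limma-trend, adjusted p = 0.352) on log2(TPM + 1), or -1.47 and -0.95 relative to the median of all genes. Without monocyte library TN1 tag_482 the count difference was -0.95 ± 0.31 (SE; edgeR, adjusted p = 0.0627). Nearly all of its TPM came from the transcript Mcl1-201, at least 99.7% in each library.

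Bcl2l1, the gene of the pro-survival protein Bcl-xL, ranged widely between monocyte libraries. It was at 8.91, 104 and 1.83 TPM in TN2 monocytes and 13.2 and 31 TPM in TN1 monocytes, against 104, 134 and 117 TPM in TN2 neutrophils and 139 and 50.9 TPM in TN1 neutrophils. Apart from library TN2 tag_706, every monocyte library was below every neutrophil library. The log2 difference was -2.57 ± 0.91 (SE) and missed the threshold (edgeR, adjusted p = 0.061). Without monocyte library TN2 tag_706, whose other marker sums are given above, it was -3.89 ± 0.63 (SE; edgeR, adjusted p = 0.00193), and without TN2 tag_1341 it was -2.41 ± 0.62 (SE; edgeR, adjusted p = 0.0221). The part of other cell types in the value of library TN2 tag_706 was not tested.

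Bcl2, the founding pro-survival gene, was nearly absent. It was at 0.396, 3.46 and 1.26 TPM in TN2 monocytes and 0.803 and 0 TPM in TN1 monocytes, against 0.459, 0.104 and 0 TPM in TN2 neutrophils and 0.401 and 0.0353 TPM in TN1 neutrophils. The highest value was again that of monocyte library TN2 tag_706, and the groups overlapped. The log2 difference was 1.27 ± 1.45 (SE; edgeR, adjusted p = 0.541).

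The listed BH3-only genes, Bcl2l11 and Bid, were both lower in monocytes. Bcl2l11, the gene of Bim, was at 102, 74.6 and 133 TPM in TN2 monocytes and 116 and 56.9 TPM in TN1 monocytes, against 176, 245 and 241 TPM in TN2 neutrophils and 306 and 101 TPM in TN1 neutrophils. Only neutrophil library TN1 tag_482 reached into the monocyte range. Monocytes minus neutrophils, the log2 difference was -1.90 ± 0.38 (SE; edgeR, adjusted p = 0.00491), a 3.74-fold lower level, and -1.11 ± 0.34 (SE; limma-trend, adjusted p = 0.0204) on log2(TPM + 1). The transcript Bcl2l11-205, the longest at 5036 bases, held 60.3% to 79.7% of its TPM in monocyte libraries and 64.7% to 81.4% in neutrophil libraries.

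Bid, whose protein is cut by caspase-8 and links death receptors to mitochondria, was at 18.2, 9.6 and 22.6 TPM in TN2 monocytes and 10.7 and 14.6 TPM in TN1 monocytes, against 48.7, 26.5 and 34.3 TPM in TN2 neutrophils and 20.7 and 80 TPM in TN1 neutrophils. The only overlap was between monocyte library TN2 tag_1341 and neutrophil library TN1 tag_191. Between the cell types the log2 difference was -2.55 ± 0.45 (SE; edgeR, adjusted p = 0.00253), a 5.87-fold lower level, and -1.37 ± 0.40 (SE; limma-trend, adjusted p = 0.0177) on log2(TPM + 1). In monocyte library TN1 tag_482 the full-length coding transcript Bid-201 held 16.9% of the gene's TPM and the retained-intron transcript Bid-205 held 54.8%, whereas Bid-201 held at least 87.2% in every neutrophil library.

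The pore-forming effectors were both higher in monocytes. Bax, whose protein moves from the cytosol to mitochondria, was at 175, 115 and 205 TPM in TN2 monocytes and 180 and 204 TPM in TN1 monocytes, against 27.1, 22.1 and 26.1 TPM in TN2 neutrophils and 11.7 and 35.5 TPM in TN1 neutrophils. In TPM no library of either cell type came near the other's range. In TMM-scaled CPM the ranges lay closer without overlap, at 43 to 116 in monocytes and 8.83 to 27.3 in neutrophils. The log2 difference was 2.12 ± 0.38 (SE; edgeR, adjusted p = 0.00289), a 4.35-fold higher level, and 2.90 ± 0.31 (SE; limma-trend, adjusted p = 3.21e-05) on log2(TPM + 1).

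Bak1, the gene of the mitochondria-resident effector, was at 9.75, 4.21 and 5.29 TPM in TN2 monocytes and 6.5 and 5.4 TPM in TN1 monocytes, against 1.26, 0.785 and 1.11 TPM in TN2 neutrophils and 0.704 and 0.508 TPM in TN1 neutrophils. Its groups did not overlap, at levels well under those of Bax. The transcript Bak1-201, annotated for nonsense-mediated decay, held 0% to 69.8% of the gene's TPM in monocyte libraries and 0% to 100% in neutrophil libraries. The coding transcript Bak1-202 was at 1.74 to 5.36 TPM in monocytes and 0 to 1.11 TPM in neutrophils. For the whole gene Bak1 the log2 difference was 2.21 ± 0.66 (SE; edgeR, adjusted p = 0.0325), a 4.63-fold higher level. It missed the threshold when a library was left out, for 8 of the 10 libraries, with adjusted p from 0.0599 to 0.105.

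Of the 10 genes, 6 passed the test between cell types, 2 higher (Bax and Bak1) and 4 lower in monocytes (Bcl2a1b, Mcl1, Bcl2l11 and Bid). Among all 13384 genes tested 27.9% passed, 15.5% higher and 12.4% lower in monocytes. Levels in TPM did not overlap for 4 of the 10 (Bax, Bak1 and Bcl2a1d higher, Bcl2a1b lower in monocytes), against 31.3% of all genes tested. The median log2 difference of the 10 was -0.65, and that of all genes 0.46. Bax, Bid, Bcl2l11 and Bcl2a1b passed under each of 18 other settings of filter, scaling, test or libraries. Within TN1 alone, Bcl2l11 was at -1.80 and missed the threshold (edgeR, adjusted p = 0.0728).

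**Figure D3:**
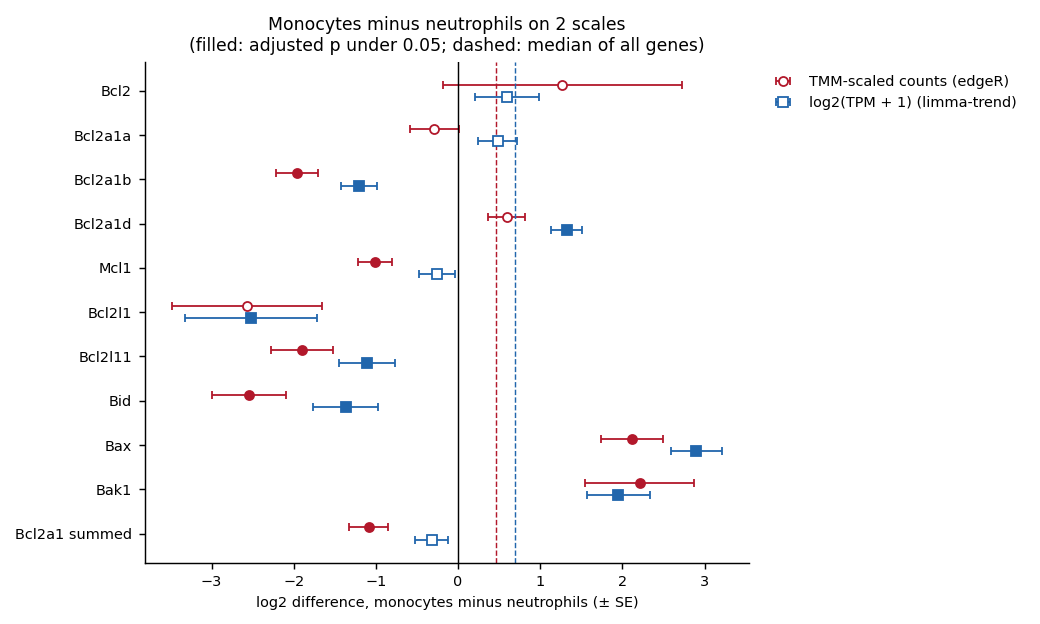
Log2 difference, monocytes minus neutrophils, with SE bars, for the 10 genes and the summed Bcl2a1 copies on TMM-scaled counts (circles) and on log2(TPM + 1) (squares). Filled symbols have an adjusted p under 0.05 and dashed lines mark the median of all genes (0.46 on counts, 0.69 on TPM). Bax and Bak1 lie to the right on both scales, Bcl2a1b, Bcl2l11 and Bid to the left on both, and Mcl1 and the summed copies are filled on counts only.

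Summed by role in TPM, the listed pro-survival, BH3-only and effector members each had ranges that did not overlap between the cell types. For the BH3-only genes this depended on which genes were listed, as given below. Bax and Bak1 together made 185, 119 and 211 TPM in TN2 monocytes and 186 and 209 TPM in TN1 monocytes, against 28.4, 22.9 and 27.2 TPM in TN2 neutrophils and 12.4 and 36 TPM in TN1 neutrophils. The 6 pro-survival genes made 630 to 1133 TPM in monocytes and 1141 to 1526 TPM in neutrophils. Their ratio to the effectors, which is free of the scaling between libraries, was 3.41 to 8.62 in monocytes and 31.7 to 99.5 in neutrophils. Bcl2l11 and Bid together made 71.5 to 155 TPM in monocytes and 181 to 326 TPM in neutrophils. The BH3-only gene Pmaip1, no listed member, was at 66.8 to 166 TPM in monocytes and 63.5 to 111 TPM in neutrophils. With Pmaip1 added, the ranges overlapped through monocyte library TN2 tag_1341 (155 and 166 TPM) and neutrophil library TN1 tag_482 (181 and 110 TPM). With Bcl2l11 and Bid added to the effectors, the ratio of pro-survival to all other members was 2.06 to 5.05 in monocytes and 3.65 to 5.26 in neutrophils. These ranges overlapped. The Bcl2a1 copies supplied 77.9% to 91.1% of the pro-survival TPM in monocytes and 76.5% to 87.2% in neutrophils. Bax stood 17.9-fold to 38.8-fold over Bak1 in monocytes and 16.6-fold to 69.8-fold in neutrophils.

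**Figure D4:**
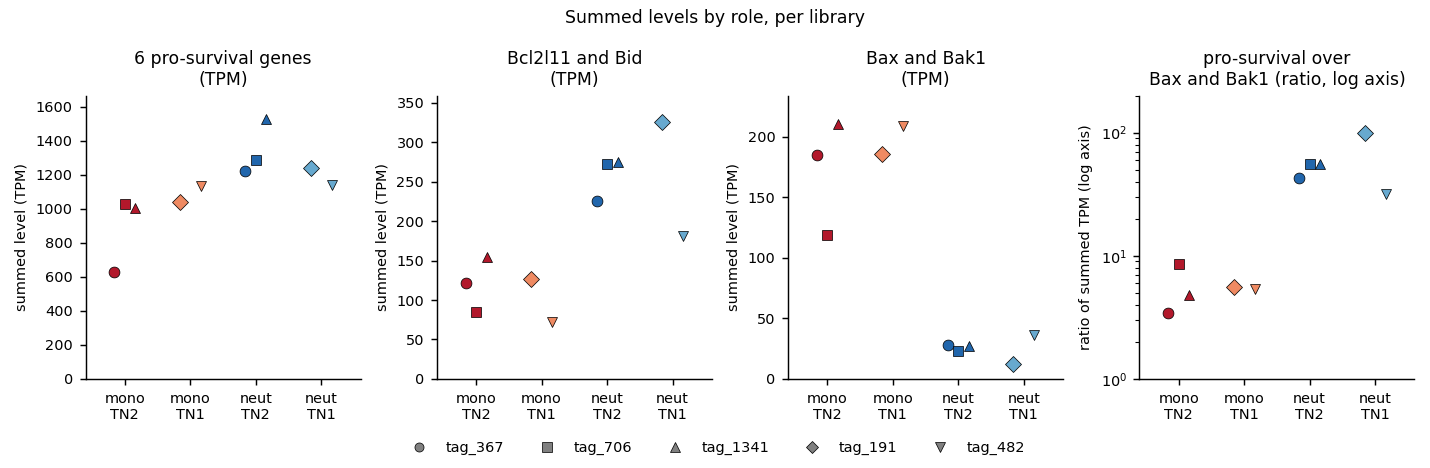
Summed TPM of the 6 pro-survival genes, of Bcl2l11 and Bid, and of Bax and Bak1 (linear axes from 0), and the ratio of the first to the last sum (log axis), per library in TN2 and TN1 monocytes and TN2 and TN1 neutrophils. Symbol shapes give the tags. The ratio is at most 8.62 in monocytes and at least 31.7 in neutrophils.

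In monocytes the order of mean TPM was Bcl2a1b (341 ± 85.3), Bcl2a1d (315 ± 109), Bax (176 ± 36.6), Bcl2a1a (164 ± 38.2), Mcl1 (113 ± 35.1), Bcl2l11 (96.4 ± 30.7), Bcl2l1 (31.8 ± 41.9), Bid (15.1 ± 5.39), Bak1 (6.23 ± 2.13) and Bcl2 (1.18 ± 1.35; SD, n = 5). Every neighbouring pair in that order had overlapping ranges except Bak1 and Bcl2. In neutrophils it was Bcl2a1b (796 ± 112), Bcl2l11 (214 ± 78), Mcl1 (133 ± 32.6), Bcl2a1d (126 ± 7.07), Bcl2a1a (118 ± 22.5), Bcl2l1 (109 ± 35.4), Bid (42 ± 23.7), Bax (24.5 ± 8.65), Bak1 (0.873 ± 0.306) and Bcl2 (0.2 ± 0.214; SD, n = 5). There the ranges of neighbours were apart for Bcl2a1b over Bcl2l11, Bax over Bak1 and Bak1 over Bcl2. Bax was thus above Mcl1 in mean level in monocytes and below it in neutrophils.

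Between lungs with TN2 and TN1 tumours, none of the 10 genes passed the test in monocytes or neutrophils. In monocytes 0% of all genes tested passed (edgeR, with 379 genes at an unadjusted p under 0.05), in neutrophils 0% passed (625 genes at an unadjusted p under 0.05), and for the difference between the tumour effects 0% passed (472 genes). DESeq2 called 17 genes higher and 5 lower in TN2 monocytes and 78 higher and 9 lower in TN2 neutrophils, with no member among them. Leaving out a tag_191 library leaves a TN1 group of 1 library, tag_482, which is then assumed to vary as the other groups do. Without the TN1 monocyte library tag_191, edgeR called 126 genes higher and 2 lower in TN2 monocytes, and without the TN1 neutrophil library tag_191 it called 484 higher and 22 lower in TN2 neutrophils, again with no member among them. For the difference between the tumour effects, it called 71 genes (67 above 0) without that monocyte library and 372 genes (5 above 0) without that neutrophil library.

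In monocytes the differences farthest from 0 in units of their SE were those of the Bcl2a1 copies. Bcl2a1d, at the TPM values given above, was lower in every TN2 than in every TN1 monocyte library, with a log2 difference, TN2 minus TN1, of -1.13 ± 0.32 (SE; edgeR, adjusted p = 1). For the summed copies it was -0.83 ± 0.33 (SE; edgeR, adjusted p = 1), and these groups did not overlap either. Alveolar macrophage marker sums, made up mostly of Chil3, separated the same libraries (1982 to 11123 TPM in TN2, 99 and 578 TPM in TN1). Of the single markers, Chil3 and Ear2 separated them, while Marco, Fabp4, Pparg, Krt79 and Car4 overlapped. Pparg, for example, was at 3.87, 17.1 and 1.35 TPM in TN2 and 7.87 and 8.98 TPM in TN1. Dendritic cell markers were at 131 to 262 TPM in TN2 against 251 and 895 TPM in TN1. The part of these cell types in the difference was not tested. The values for neutrophils were 0.10 ± 0.32 (SE) for Bcl2a1d and 0.23 ± 0.34 (SE) for the sum. The difference between the cell types' tumour effects was -1.23 ± 0.46 (SE) for Bcl2a1d and -1.06 ± 0.48 (SE) for the sum, and neither passed (edgeR, adjusted p = 1 for both). Among the 10 genes, TPM did not overlap between TN2 and TN1 monocytes for 2 (Mcl1 higher and Bcl2a1d lower), against 24.4% of all genes.

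In TPM, Mcl1 was higher in every TN2 than in every TN1 library in both cell types. In TMM-scaled CPM this did not hold in monocytes, where TN2 tag_706 (196 CPM) was below the TN1 libraries (234 and 197 CPM). The log2 difference was 0.34 ± 0.29 (SE; edgeR, adjusted p = 1) in monocytes and 0.57 ± 0.30 (SE; edgeR, adjusted p = 0.943) in neutrophils. In neutrophils TPM did not overlap for 2 of the 10 genes, Mcl1 and Bak1, both higher in TN2, against 17.1% of all genes. The Bak1 difference there was 0.87 ± 0.92 (SE; edgeR, adjusted p = 0.957). The other members' TN2 minus TN1 differences lay between -0.65 (Bcl2a1a and Bcl2a1b) and 1.78 ± 2.13 (SE, Bcl2) in monocytes and between -0.41 ± 0.59 (SE, Bid) and 0.41 ± 1.22 (SE, Bcl2l1) in neutrophils, and all missed the threshold (edgeR).

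**Figure D5:**
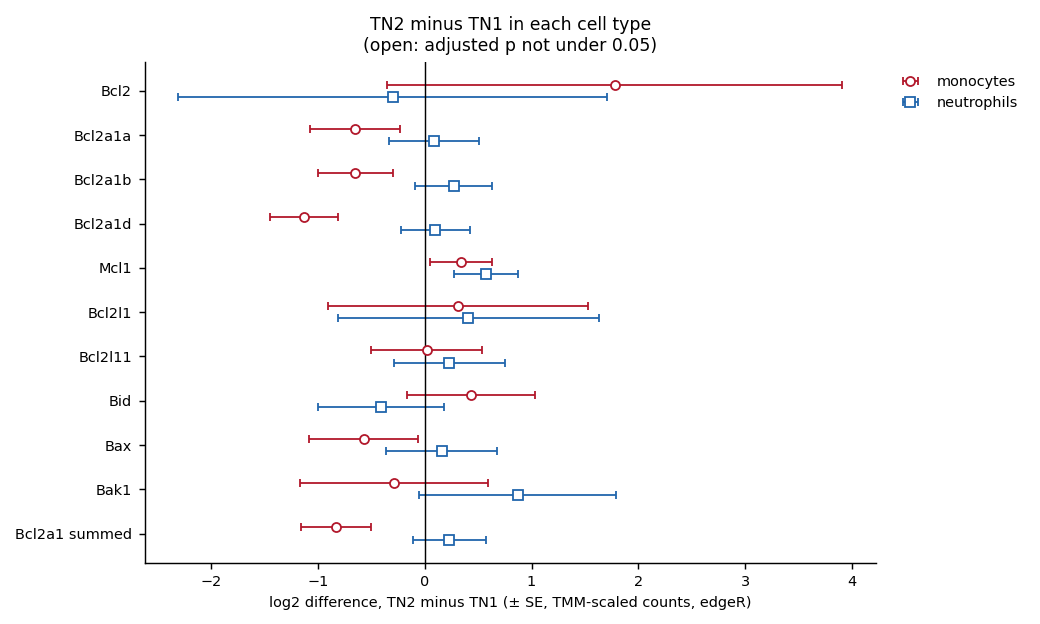
Log2 difference, TN2 minus TN1, with SE bars, on TMM-scaled counts for the 10 genes and the summed Bcl2a1 copies, in monocytes (circles) and neutrophils (squares). All symbols are open, since no adjusted p was under 0.05, and Bcl2a1d in monocytes (-1.13) lies farthest to the left.

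The authors' deposited comparison tables list 8 of the 10 genes, all but Bcl2a1a and Bcl2a1d. Their adjusted p was 1 for each listed member in both cell types. In the authors' deposited table the smallest unadjusted p of a member was that of Mcl1, 0.0886 in monocytes with a log2 fold of 0.65 and 0.0968 in neutrophils with a log2 fold of 0.49, both TN2 over TN1. The group means in the authors' deposited tables equalled the mean of log2(TPM + 1) computed here within 0.01 for 8 of the 8 listed genes in monocytes and for 7 in neutrophils. The exception was Bak1 in TN2 neutrophils, at 1.13 in the authors' deposited table and 1.03 here.

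Of 16 further BCL2 family genes, 12 could be tested between the cell types, with 1 higher and 3 lower in monocytes. The shares of all genes tested were 15.5% higher and 12.4% lower. The median over the list was 0.26 (all genes 0.46). Bcl2l14, a family member of debated function, had 187 counts over the monocyte libraries and 0 over the neutrophil libraries, which is at least 71.4-fold higher relative to library size when 3 counts over the group are taken as the floor (edgeR, adjusted p = 0.0272). Of these, 107 counts came from monocyte library TN1 tag_482, without which (left out after seeing the data) the bound was 36.5-fold, from 80 counts over 4 libraries, and TN2 tag_1341 had 0. Bnip3 and Bnip3l, whose proteins act in the clearance of mitochondria, were lower on counts, at -1.46 ± 0.33 (SE; edgeR, adjusted p = 0.00983) and -0.71 ± 0.19 (SE; edgeR, adjusted p = 0.0227), with overlapping TPM. Bcl2l15 was at 0 to 2.53 TPM in monocytes and 2.62 to 80.1 TPM in neutrophils, where 80.1 TPM belonged to TN2 tag_1341 and no other library passed 7.79 TPM (log2 difference -4.62 ± 1.49 SE; edgeR, adjusted p = 0.0443).

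The BH3-only genes Pmaip1 (Noxa) and Bmf did not pass, nor did Bbc3 (Puma), Bad and Bik. Pmaip1 was the most abundant of them, at 66.8 to 166 TPM in monocytes and 63.5 to 111 TPM in neutrophils (log2 difference -0.72 ± 0.30 SE; edgeR, adjusted p = 0.0987). Bbc3 was at 2.21 to 6.67 TPM in monocytes and 0.163 to 3.29 TPM in neutrophils. Bad was at 23.9 to 28.2 TPM in 4 monocyte libraries and 1.05 TPM in TN1 tag_482, against 7.94 to 12.4 TPM in neutrophils. Bmf reached 2.46 TPM in monocytes and 0.118 TPM in neutrophils, and Bik 14.2 TPM and 3.55 TPM, with both monocyte maxima in TN2 tag_706. The pro-survival gene Bcl2l2 (Bcl-w) was at 0 to 5.82 TPM in monocytes and 0 to 1.22 TPM in neutrophils and did not pass (edgeR, adjusted p = 0.174). Bcl2l12 was at 3.63 to 7.1 TPM in monocytes and 0.142 to 0.777 TPM in neutrophils, without overlap, and narrowly missed the threshold (log2 difference 2.62 ± 0.89 SE; edgeR, adjusted p = 0.0524). Bcl2l13 was at 5.81 to 8.24 TPM in monocytes and 3.42 to 5.5 TPM in neutrophils, without overlap, and yet at -0.21 ± 0.29 (SE; edgeR, adjusted p = 0.622) on counts. Too low to be tested were Bcl2l10, Bcl2a1c, Hrk and Bok, the last at 12.6 TPM in monocyte library TN2 tag_706 and at most 0.0873 TPM elsewhere. In neither cell type did a gene of this list pass between TN2 and TN1.

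Of 24 genes of the death machinery at or downstream of the mitochondria, 9 were higher and 2 lower in monocytes. Among all genes tested 15.5% were higher and 12.4% lower. The median over the list was 0.71 (all genes 0.46). Mtch2, a mitochondrial docking site for cleaved Bid, averaged 127 ± 11.8 TPM in monocytes and 20 ± 4.63 TPM in neutrophils (SD, n = 5 each; log2 difference 2.02 ± 0.26 SE, edgeR, adjusted p = 0.000476). The outer membrane channel gene Vdac3 averaged 158 ± 12 TPM in monocytes and 25.3 ± 5.3 TPM in neutrophils (SD; log2 difference 1.91 ± 0.27). The 3 other named genes that were higher were Aifm1 (3.45 ± 0.56), which encodes apoptosis-inducing factor, the caspase target Parp1 (4.55 ± 0.82) and the executioner caspase gene Casp6 (3.15 ± 0.59). The 2 lower genes encode the ubiquitin ligases that hold back death receptor signalling, Birc3 with 204 ± 57.6 TPM in monocytes and 454 ± 144 TPM in neutrophils (SD; log2 difference -2.06 ± 0.30 SE, edgeR, adjusted p = 0.000947) and Birc2 (-1.93 ± 0.32).

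Of 23 regulators of the family, 1 was higher and 7 were lower in monocytes, with a list median of -0.62 (all genes 0.46). Over all genes tested, 15.5% were higher and 12.4% lower. Trp53, encoding p53, an activator of Bax and Bbc3, was at 52.9 to 77.6 TPM in monocytes and 0.0787 to 9.05 TPM in neutrophils (log2 difference 2.80 ± 0.82 SE; edgeR, adjusted p = 0.03). The lower genes with the smallest p on counts were Stat3 (-1.47 ± 0.18), Rela (-1.43 ± 0.19), Ywhaz (-1.19 ± 0.21), Ddit3 (-1.45 ± 0.32) and Pim1 (-1.41 ± 0.32; SE, edgeR, adjusted p from 0.000389 to 0.00934). Mean TPM in monocytes and neutrophils was 173 and 272 for Stat3, 49.6 and 74.7 for Rela and 702 and 993 for Ywhaz. It was 85.8 and 143 for Ddit3 and 28.7 and 55.9 for Pim1. Only 1 of the 23 regulators was lower in monocytes without overlap in TPM. Stat3 and Rela encode transcription factors known to raise pro-survival genes, Ywhaz a 14-3-3 protein that holds phosphorylated Bad, Ddit3 the stress factor CHOP and Pim1 a survival kinase. No gene of the downstream or regulator lists passed between TN2 and TN1 in either cell type. The monocyte library TN2 tag_706 entered all these values.

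The upstream sequence of the copies that divided differently was also compared. RefSeq promoter windows (250 bases before to 50 after a start, GRCm38.p6) exist for all 10 genes. The letters GAGGAAGT, an ETS-type core of the kind bound by the myeloid factor PU.1, were searched on both strands and occurred in 4 of the 13 windows of the 10 genes and in 3.2% of 32851 windows of all genes. They were read forward in Bcl2a1a, Bcl2a1b and Bcl2a1d, and in reverse in Bak1. The copies have nearly the same sequence here, so their matches are not independent and the member windows cannot be weighed against all windows. Bcl2a1c, which is no member and held at most 0.132% of the copies' TPM, had the letters forward as well. Relative to the annotated RefSeq start, the match began at -104 in Bcl2a1a and Bcl2a1d and at -148 in Bcl2a1b. By the coordinates given, the match lies equally far before the first coding base in each of these copies. The offsets thus differ through the annotated starts. The 80 bases around the match are shown in the direction of transcription, to set the copies side by side, with the match in capitals. They lie at chr9:88956776-88956855 (plus strand), chr9:89199085-89199164 (plus strand) and chr9:88731915-88731994 (minus strand).
Bcl2a1a: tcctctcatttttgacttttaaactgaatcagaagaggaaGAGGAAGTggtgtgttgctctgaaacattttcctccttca
Bcl2a1b: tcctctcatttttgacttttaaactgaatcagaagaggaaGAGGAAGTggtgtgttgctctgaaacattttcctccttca
Bcl2a1d: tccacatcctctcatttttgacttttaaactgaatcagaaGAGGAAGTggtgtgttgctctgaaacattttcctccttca

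The 80 bases shown of Bcl2a1a and Bcl2a1b are the same letter for letter. Those of Bcl2a1d lack the letters gaggaa that directly precede the match in the other copies. The part of upstream sequence in the copy shares was not tested. A match in letters is a description and says nothing on binding.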

How the data were processed

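RNA of sorted lung monocytes and neutrophils was amplified with Smart-seq2, which carries no molecular identifiers, and sequenced on an Illumina instrument, per the labels' protocols. The authors used kallisto 0.42.3 with a GRCm38 transcriptome, per the labels. Per the file headers, each deposited table gives an estimated count and a TPM value per transcript. AltAnalyze output, deposited as a pair of comparison tables, gives log2 group means, a signed fold (a score with no values between its signs) and a p-value. Depth was 7239218 to 11311370 estimated counts per library.

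Here transcripts were summed to genes with GENCODE M21 (81839 of 85276 transcripts matched, 96%), and counts were rounded. One model of the 4 groups was fitted with edgeR 4.0.16 (R 4.3.3; filterByExpr with a minimum total of 10 counts, TMM, quasi-likelihood F test, Benjamini-Hochberg over 13384 genes, threshold 0.05, 6 residual degrees of freedom), and the SE is the log2 difference over the square root of F. DESeq2 1.42.0, limma 3.58.1 on log2(TPM + 1) and on log2(TPM + 0.1), other filters and leaving out libraries were alternatives. Copy shares were compared by exact permutation (scipy 1.17.1). The test was tried on simulated data. The members and gene lists were chosen with earlier results of these data known. Named were all members, every measured gene of the further BCL2 family list, and up to 5 genes per direction with the smallest p of the other lists. The floor of 3 counts covers counting error only, while SD and SE include the spread between libraries.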

Additional observations from a re-analysis of the deposited data

Results flagged for a closer look

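Levels in TPM of the 10 genes and of the summed Bcl2a1 copies were checked for a library far from the other 4 of its cell type, in 22 groups of 5 libraries, of which chance alone would mark about 1 in 20. There were 4 such values. Bcl2a1b was at 192 TPM in monocyte library TN2 tag_367, below the 357 to 398 TPM of the other monocyte libraries. Bcl2a1b was at 992 TPM in neutrophil library TN2 tag_1341, above the 717 to 787 TPM of the other neutrophil libraries, and the summed copies were at 1274 TPM in that library, against 936 to 1020 TPM in the others. Bcl2l1 was at 104 TPM in monocyte library TN2 tag_706, against 1.83 to 31 TPM in the other monocyte libraries, and this library also had the highest stromal, endothelial and epithelial marker sums of all 10.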

How the results depend on the processing

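Between the cell types, 4 to 7 of the 10 members were called under other settings, against 6, with 4 without the TN1 monocyte library tag_482 and 7 without the TN2 monocyte library tag_706. Over all genes, limma-trend called 4542 higher and 1215 lower on log2(TPM + 1), against 2070 and 1663 with edgeR. Values below are log2 differences, and the cause of each change was not tested.

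On log2(TPM + 1) and log2(TPM + 0.1), the summed Bcl2a1 copies were at -0.32 on each between the cell types (adjusted p = 0.221 and 0.211), and Bcl2a1a at 0.48 on each. Between the tumours, Bcl2a1a was at -0.06 on each in neutrophils, Bcl2l1 at -0.57 and -0.74 and Bak1 at 0.03 and 0.02 in monocytes, and Mcl1 at 0.16 and 0.17 for the difference of the tumour effects. Bcl2l11 in monocytes was at -0.04 with DESeq2 and with edgeR's RLE factors. Without both tag_482 libraries, the tumour differences in neutrophils were -0.18 for Bcl2l1, -0.35 for Bcl2l11 and 0.98 for Bid, that of Bcl2l11 in monocytes was -0.38, and the differences of the effects were 1.32 for Bcl2l1 and -0.58 for Bid.

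In comparisons within a tumour, added after seeing the data, the summed copies were at -1.62 (adjusted p = 0.0079) within TN2 and at -0.56 (adjusted p = 0.342) within TN1, Bcl2a1a was at 0.08 within TN1 and Bcl2a1d at -0.02 within TN2. Calls were also lost for Bcl2l11 (-1.80, adjusted p = 0.0728) and Mcl1 (-0.89, adjusted p = 0.101) within TN1 and for Bak1 within TN2 (1.63, adjusted p = 0.228) and TN1 (2.79, adjusted p = 0.113), all with edgeR.

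Leaving out a library each time, Bcl2 ranged from -2.49 to 2.54 between the cell types. TN2 minus TN1 in neutrophils ranged from -0.03 to 0.42 for the summed copies, -1.86 to 2.27 for Bcl2, -0.24 to 0.35 for Bcl2a1a, -0.04 to 0.19 for Bcl2a1d, -0.14 to 1.35 for Bcl2l1, -0.31 to 1.14 for Bcl2l11, -1.10 to 1.04 for Bid and -0.43 to 1.20 for Bax. In monocytes it ranged from -2.33 to 0.96 for Bcl2l1 and -0.39 to 0.51 for Bcl2l11. The difference of the effects ranged from -0.49 to 9.31 for Bcl2, -0.39 to 0.09 for Mcl1, -2.62 to 0.66 for Bcl2l1, -1.12 to 0.39 for Bcl2l11 and -0.61 to 1.53 for Bid. No tumour difference of a member or of the summed copies passed under any of these settings, and the smallest adjusted p was 0.136 (Bcl2a1d in monocytes, edgeR, without the TN1 library tag_191, which leaves 1 library in that group).

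Libraries with the same tag deviated from their group means with correlations of -0.0569 to 0.38, and 8 of 10 libraries correlated best with their own tag, which is a hint from the data and not from the labels. With the tag as a replicate block, 6 members were again called between the cell types, with Bcl2l1 (-3.33, adjusted p = 0.0274) in and Bak1 (2.17, adjusted p = 0.0942) out, the summed copies were at -1.09, and 0 members were called for the difference of the tumour effects. TN2 minus TN1 within a cell type cannot be fitted with that block.

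Groups of 2 and 3 libraries limit the tumour comparisons, and low counts limit Bcl2 and Bak1.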

Other observations

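The genes whose pattern was most like that of the summed Bcl2a1 copies over the 10 libraries were Trib3 (Pearson r 0.946), Ncoa2 (0.933) and Retreg1 (0.930), among 13381 genes compared on log2 TMM-scaled counts. For Bcl2l11 they were Sra1 (0.987), Ptafr (0.984) and Actg-ps1 (0.979), and for Mcl1 they were Tmc6 (0.975), Adgre5 (0.968) and Glipr2 (0.966). The 10 points are 5 libraries of each cell type, so these values contain the difference between the cell types, and they describe likeness only.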
